A study of Mus musculus with 8 samples.

Results

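The 5 subunits of the transcription factor NF-kB and 5 genes that regulate it were followed in bulk RNA sequencing of group 2 innate lymphoid cells (ILC2), lymphocytes that make type 2 cytokines without an antigen receptor. The 10 genes were chosen by name from the 50686 in the count table: Rela, Rel, Relb, Nfkb1, Nfkb2, Nfkbia, Bcl3, Tnfaip3, Birc2 and Birc3. All 10 were among the 13644 genes that passed the filter on low counts, and the lowest count of any of them in any library was 210, for Rel.

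NF-kB is a dimer of Rel-family proteins that waits in the cytoplasm bound to inhibitors of the IkB family. Receptors for IL-33, IL-25, IL-1 and the TNF family recruit adaptors and ubiquitin ligases, which activate the IKK kinases, and IKK marks the inhibitors for destruction so that the dimers enter the nucleus. Several of the genes switched on there, Nfkbia and Tnfaip3 among them, encode proteins that end the signal. In ILC2, IL-33 and IL-25 act partly through this pathway to drive type 2 cytokine genes.

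The cells had been isolated from thymus. The C57BL/6 donors carried the plck-Id1 transgene, in which the proximal promoter of Lck, active in the T lineage, drives Id1, an inhibitor of E proteins. All 4 groups therefore carried the transgene, and all had been stimulated and expanded in a mix of cytokines (IL-33, IL-25, IL-7), sorted for GFP and treated with 4-hydroxytamoxifen. They were transduced with the retroviral vector MIGR1, which gave GFP alone (GFP cells) or GFP with E47-ER (E47-ER cells), a fusion of the E protein E47 to a hormone-binding part of the estrogen receptor that 4-hydroxytamoxifen activates. RNA was taken after 4 or 16 h of the drug, with 2 libraries in each group of vector and time. Cells with E47-ER but without the drug were not analysed here, so what the construct did before activation and what its activation did cannot be told apart. The labels do not say if the 2 libraries of a group were separate mice or cultures, and p-values reflect only how far these libraries lay apart. In bulk RNA, fewer cells of a kind and less RNA per cell cannot be told apart.

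Library totals ran from 8813782 to 18677675 counts. Levels are given as CPM, counts scaled to library size, and as CPM per kb of the longest annotated transcript where genes are compared with each other. Esr1, whose reads include those of the construct, stood at 0.211 to 0.932 CPM in the 4 GFP libraries and 43.8 to 54.5 CPM in the 4 E47-ER libraries. All 12 ILC2 markers on the list used were present at 1 CPM or more. They summed lower with E47-ER, at 22600 to 22974 against 25299 to 27557 CPM at 4 h and at 20916 to 21244 against 25046 to 31587 CPM at 16 h. The most abundant markers weigh most in these sums, with a median of 7381 CPM for Il13 and 4249 CPM for Il5 against 9.99 CPM for Il17rb. The markers did not all fall. Without replicate 2 of GFP at 16 h the log2 fold change at 16 h was 0.90 for Il17rb and -0.53 for Il2ra. Cd4, Cd8a, Cd8b1 and Cd5 of the 8 T cell markers lay under 1 CPM in every group, although the 8 summed to 43.5 to 48.95 CPM in E47-ER cells at 16 h and to 32.2 to 38.6 CPM in GFP cells at that time. The 4 thymic epithelial markers also summed higher with E47-ER, at 20.7 to 22.6 against 5.98 to 9.06 CPM at 16 h, with Krt5, Krt8 and Foxn1 under 1 CPM. So did the 7 myeloid markers, at 22.1 to 28.5 against 13.98 to 17.1 CPM with Lyz2, Mpo and Elane under 1 CPM, and the 4 dendritic cell markers, at 4.27 to 8.66 against 2.69 to 2.93 CPM with Flt3 and Siglech under 1 CPM. At 4 h the 4 mast cell markers summed to 205.8 to 233.9 CPM with E47-ER and 160.4 to 177.4 CPM without, with Mcpt4 and Fcer1a under 1 CPM. Their sums overlapped at 16 h, at 132.5 to 172.8 against 130.3 to 175.5 CPM. The 5 B cell markers summed lower with E47-ER at 16 h, at 7.91 to 8.15 against 9.20 to 14.25 CPM. The 4 NK and ILC1 markers overlapped at 16 h, at 23910 to 25107 against 21851 to 25285 CPM. Of these only Gzmb passed 1 CPM. The part of these transcripts in the results below was not tested.

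A single library, replicate 2 of the GFP cells treated for 16 h, differed from the rest and is called the shifted library here. The other 7 had TMM scaling factors of 1.01 to 1.03, and this one 0.854. Its difference from replicate 1 of the same group went with transcript length. With the tested genes split by length into 5 equal classes, the median difference on the log2 scale was 0.59 in the class of shortest transcripts (up to 1647 bases) and -0.33 in that of the longest (from 4986 bases). In the other 3 groups no class had a median further from 0 than 0.07. The members followed their lengths in part. Nfkbia, with the shortest transcript of the 10 (1578 bases), was 0.82 higher on the log2 scale in replicate 2 than in replicate 1. Tnfaip3 (6199 bases) was lower by that measure, at -0.54, and Nfkb1 (4149 bases) stood at -0.41. Bcl3 (1850 bases), at 0.0055, and Rel (7466 bases), at 0.047, hardly differed between these 2 libraries, and Birc2 (3331 bases) was higher in replicate 2 by 0.24. The members' results at 16 h are therefore given with all 8 libraries and without the shifted one. In the latter fit the single GFP library left at 16 h had no spread of its own, and that of the remaining groups was used for it. A fit with offsets that take out each library's trend with transcript length is named where it moved a member's value by over 1.5 times, and for Bcl3.

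**Figure D1:**
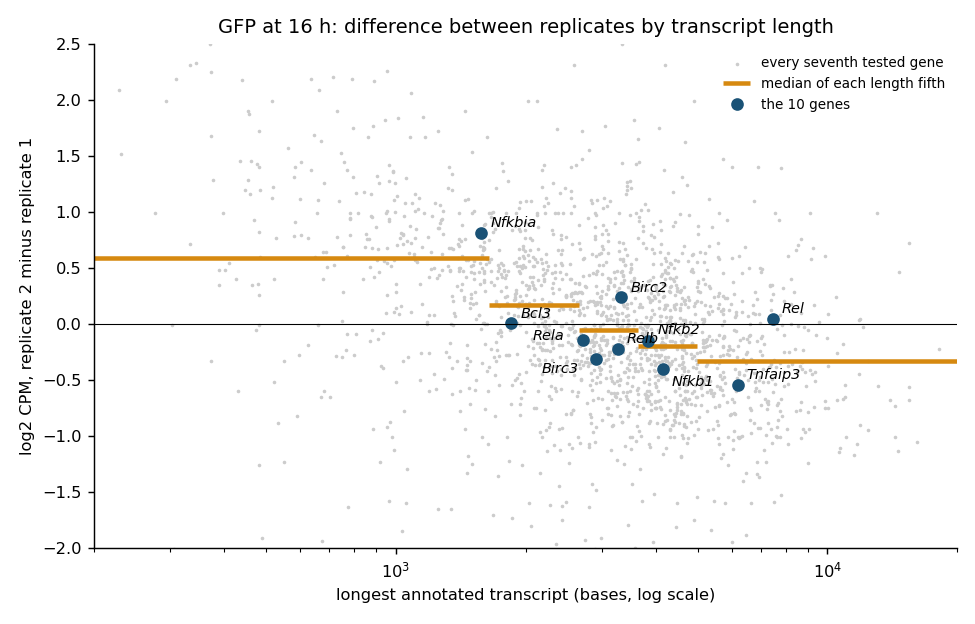
Difference in log2 CPM between the 2 GFP libraries at 16 h (replicate 2 minus replicate 1, vertical) against the longest annotated transcript in bases (horizontal, log scale); grey points are every seventh tested gene, bars the median of each of 5 length classes, large points the 10 genes, and points beyond the axis limits are not drawn. The medians step down from 0.59 to -0.33, with Nfkbia at 0.82 and Tnfaip3 at -0.54.

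Per kb of transcript, the inhibitor gene Nfkbia had the highest level of the 10 and Rel the lowest. In GFP cells at 4 h Nfkbia stood at 270 ± 1.71 CPM per kb (SD, n = 2), followed by Bcl3 at 120.4 ± 0.657 and Nfkb1 at 87.9 ± 8.66. Birc3, at 47.7 ± 2.03, Nfkb2, at 41.45 ± 4.16, and Rela, at 39.0 ± 0.588 CPM per kb, lay close together, and the SD ranges of Nfkb2 and Rela overlapped. Relb followed at 22.7 ± 1.27 CPM per kb. Birc2, at 17.6 ± 0.994, and Tnfaip3, at 15.7 ± 1.61 CPM per kb, overlapped within 1 SD, and Rel stood at 4.42 ± 0.178. The order in E47-ER cells at 16 h differed in 1 place: Birc2, at 26.5 ± 1.11 CPM per kb, stood above Relb, at 24.6 ± 0.108.

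The first question is whether E47-ER cells differed from GFP cells in these genes after 4 h. None passed an adjusted p under 0.05 by edgeR's quasi-likelihood test, where 0.286% of all tested genes did (39 of 13644). At an unadjusted p under 0.05 there were also 0 members, where 5.82% of all genes passed (794 of 13644). DESeq2 called 0 members, where it called 109 of all genes. Tnfaip3, Bcl3, Birc2 and Birc3 had both E47-ER libraries above both GFP libraries, an order found for 22.4% of all genes. Nfkbia had both below, an order held by 22.9%. The median log2 fold change of the 10 was 0.077, against -0.0043 for all genes.

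After 16 h, 9 of the 10 genes had both E47-ER libraries above both GFP libraries, and Nfkbia had both below. Among all genes 27.8% had the first order and 26.6% the second. No member passed an adjusted p under 0.05, where 1.59% of all genes did (217 of 13644), and the smallest adjusted p was 0.061, for Birc2. At an unadjusted p under 0.05 there were 5 members (Birc2, Tnfaip3, Bcl3, Nfkbia and Rel) and 24.0% of all genes. DESeq2 called 2 members, Tnfaip3 and Birc2, where it called 943 of all genes. The members' median log2 fold change was 0.27, against -0.0057 for all genes.

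Without the shifted library, Birc2, Tnfaip3 and Bcl3 were called higher with E47-ER at 16 h, where 8.92% of all genes were called in either direction (1262 of 14146). The same 9 genes stood above the remaining GFP library in both E47-ER libraries, as 40.5% of all genes did, and the members' median log2 fold change was 0.12. At 4 h the fit without that library called 4.33% of all genes and none of the 10. The members' median log2 fold change there was 0.080, against -0.00028 for all genes. Leaving out replicate 1 of GFP at 16 h instead called 8 members at 16 h, but 48.6% of all genes were then called.

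**Figure D2:**
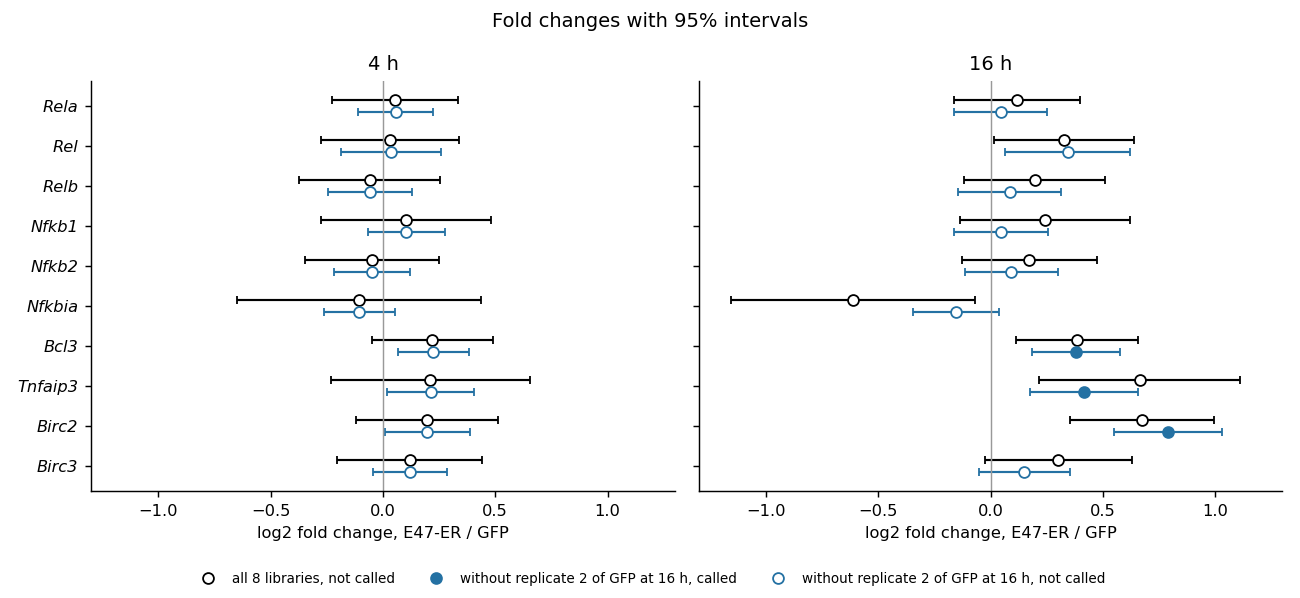
Log2 fold change of E47-ER over GFP cells (horizontal) for each gene (vertical) at 4 h (left) and 16 h (right), with 95% intervals; black is the fit to all 8 libraries, blue the fit without the shifted library (replicate 2 of GFP, 16 h), and filled points are called at an adjusted p under 0.05. At 16 h Birc2, Tnfaip3 and Bcl3 are called in the second fit, and Nfkbia moves from -0.61 to -0.15.

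Birc2 (ENSMUSG00000057367; chromosome 9, 7818227 to 7837064, GRCm38) encodes cIAP1, a ubiquitin ligase that links TNF-family receptors to IKK and keeps the kinase NIK low. It stood at 56.1 and 60.8 CPM in GFP cells and 63.6 and 70.4 CPM in E47-ER cells at 4 h. The 16 h levels were 50.8 and 60.1 CPM in GFP cells and 85.7 and 90.9 CPM in E47-ER cells. The E47-ER libraries were the higher ones at both times, with a wider gap at 16 h. The log2 fold change was 0.20 (95% interval -0.12 to 0.51, SE 0.138, adjusted p = 1.0) at 4 h and 0.67 (0.36 to 0.99, SE 0.139, adjusted p = 0.061) at 16 h. Without the shifted library the 16 h value was 0.79 (0.55 to 1.03, adjusted p = 6.71e-05), or 1.73-fold. The difference between the effects at the 2 times was 0.48 (0.031 to 0.93), the smallest p of the 10 for that contrast (0.039 unadjusted, 0.699 adjusted), and 0.59 (adjusted p = 0.215) without that library.

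Its paralog and neighbour Birc3 (ENSMUSG00000032000; chromosome 9, 7848699 to 7873186) encodes cIAP2, a ubiquitin ligase with the same partners and a known NF-kB target. The 2 genes lie 11634 bases apart with 0 annotated genes between them, and 1.42% of the 50-base words in Birc2 transcripts (65 of 4579) also occur in Birc3 transcripts. Birc3 stood at 134.5 and 142.9 CPM in GFP cells and 155.8 and 145.4 CPM in E47-ER cells at 4 h. By 16 h its levels were 136.6 and 110.1 CPM in GFP cells and 147.6 and 157 CPM in E47-ER cells. The groups did not overlap at either time, but the lowest value was that of the shifted library. The log2 fold change was 0.12 (95% interval -0.21 to 0.44) at 4 h and 0.30 (-0.023 to 0.63, adjusted p = 0.228) at 16 h, and 0.15 (-0.054 to 0.35, adjusted p = 0.403) at 16 h without it.

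Tnfaip3 (ENSMUSG00000019850; chromosome 10, 19000910 to 19015657) encodes A20, a ubiquitin-editing enzyme that ends IKK activation. It stood at 90.4 and 104.5 CPM in GFP cells and 110.2 and 115.6 CPM in E47-ER cells at 4 h. After 16 h the GFP libraries had 91.6 and 63.0 CPM and the E47-ER libraries 111.9 and 133.8 CPM. E47-ER libraries were higher at both times, and the shifted library had the lowest level of the 8. The log2 fold change was 0.21 (95% interval -0.23 to 0.66, adjusted p = 1.0) at 4 h and 0.66 (0.22 to 1.11, SE 0.194, adjusted p = 0.132) at 16 h. Without the shifted library the 16 h value was smaller, at 0.42 (0.17 to 0.66), or 1.33-fold. That interval rests on a single GFP library at 16 h, with the spread taken from the remaining groups.

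Bcl3 (ENSMUSG00000053175; chromosome 7, 19808462 to 19822770) encodes an unusual IkB protein that works in the nucleus with p50 and p52 dimers. It stood at 223.5 and 221.8 CPM in GFP cells and 259.4 and 259.5 CPM in E47-ER cells at 4 h. After 16 h GFP cells had 210 and 210.8 CPM and E47-ER cells 262.4 and 287.3 CPM. The 4 GFP libraries lay between 210 and 223.5 CPM, below all 4 E47-ER libraries. The log2 fold change was 0.22 (95% interval -0.050 to 0.49, adjusted p = 0.979) at 4 h and 0.39 (0.11 to 0.66, SE 0.118, adjusted p = 0.136) at 16 h. At 16 h it was 0.38 (0.18 to 0.58) without the shifted library, so leaving that library out hardly changed its size. With length offsets and all 8 libraries it was larger, at 0.56 (adjusted p = 0.0514). Gm16175 and Gm16174, which overlap Bcl3 on the other strand, reached at most 0.704 and 4.16 CPM in any library.

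Nfkbia (ENSMUSG00000021025; chromosome 12, 55489410 to 55492647) encodes IkBa, the inhibitor that is destroyed on activation and made again as a target of NF-kB. It stood at 424.1 and 428 CPM in GFP cells and 376.3 and 414.6 CPM in E47-ER cells at 4 h. The 16 h levels were 420.7 and 741 CPM in GFP cells and 375.2 and 384.4 CPM in E47-ER cells. The shifted library alone lay far above the other 7, which ranged from 375.2 to 428 CPM. The log2 fold change was -0.11 (95% interval -0.65 to 0.43, adjusted p = 1.0) at 4 h and -0.61 (-1.16 to -0.068, SE 0.236, adjusted p = 0.18) at 16 h. Without that library the 16 h value was -0.15 (-0.35 to 0.037, adjusted p = 0.349). With length offsets and all 8 libraries it was -0.32 (adjusted p = 0.233). The difference of 0.82 between the 2 GFP libraries stands beside the median of 0.59 for genes of the length class of Nfkbia.

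**Figure D3:**
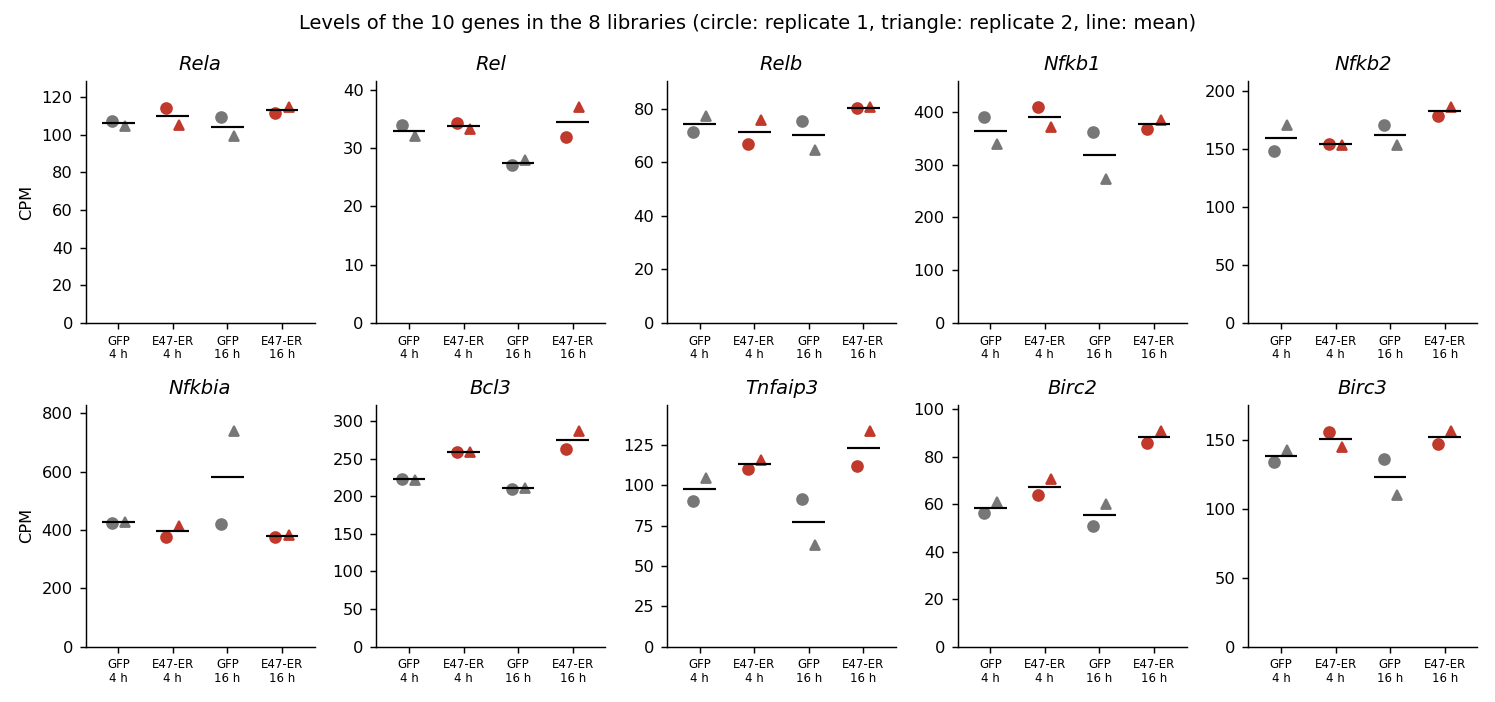
CPM (vertical, from 0) of each of the 10 genes in the 8 libraries, by vector and time (horizontal); grey is GFP and red E47-ER, circles are replicate 1, triangles replicate 2 and lines the mean of 2. Nfkbia shows 1 library at 741 CPM with the other 7 at 375.2 to 428, and Birc2 at 16 h shows E47-ER libraries at 85.7 and 90.9 above GFP libraries at 50.8 and 60.1.

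The start regions of the 3 genes called without the shifted library, and of Nfkbia, whose difference ran the other way, are shown so that their motifs can be compared; they were chosen after the values were seen. The 250 bases before the RefSeq start (GRCm38.p6, strand of the gene, all minus) are in lower case, and capitals mark matches on either strand to the kB consensus of NF-kB or to CANNTG, the E-box to which E proteins bind. The windows lie at chr9:7837058-7837307, chr10:19015411-19015660, chr7:19822756-19823005 and chr12:55492648-55492897.
Birc2: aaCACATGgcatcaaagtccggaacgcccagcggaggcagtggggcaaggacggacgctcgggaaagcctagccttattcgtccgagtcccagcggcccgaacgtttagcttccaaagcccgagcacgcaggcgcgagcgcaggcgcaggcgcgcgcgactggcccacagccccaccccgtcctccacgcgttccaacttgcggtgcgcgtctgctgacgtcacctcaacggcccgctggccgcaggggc
Tnfaip3: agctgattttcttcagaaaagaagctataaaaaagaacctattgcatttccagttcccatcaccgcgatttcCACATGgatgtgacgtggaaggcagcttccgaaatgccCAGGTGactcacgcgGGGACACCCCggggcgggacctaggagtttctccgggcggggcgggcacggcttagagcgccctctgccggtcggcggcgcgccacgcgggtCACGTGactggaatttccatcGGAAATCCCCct
Bcl3: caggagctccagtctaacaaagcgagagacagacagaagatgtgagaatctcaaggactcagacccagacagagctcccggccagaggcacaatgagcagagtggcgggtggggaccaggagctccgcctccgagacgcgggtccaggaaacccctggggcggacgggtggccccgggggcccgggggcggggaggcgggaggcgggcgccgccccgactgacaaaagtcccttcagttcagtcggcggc
Nfkbia: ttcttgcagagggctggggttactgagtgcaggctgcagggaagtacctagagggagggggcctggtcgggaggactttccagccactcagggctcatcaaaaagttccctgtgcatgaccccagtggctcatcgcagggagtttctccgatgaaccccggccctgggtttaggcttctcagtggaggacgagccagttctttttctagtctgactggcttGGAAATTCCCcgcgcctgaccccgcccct
Counted from the start site, in windows that also took in the first 50 bases of the gene, Birc2 had no kB match and 1 CANNTG, at -248 to -243. Tnfaip3 had kB matches at -125 to -116 and -12 to -3 and 4 CANNTG, of which CAGGTG at -140 to -135 is a form E47 prefers. Its RefSeq start lies 247 bases from the GENCODE start. Bcl3 had 1 kB match, GGGAAGTCCC at 3 to 12 of the gene, and no CANNTG, and Nfkbia had GGAAATTCCC at -29 to -20 and no CANNTG. RefSeq windows matched 8 of the 10 genes, all but Nfkb1 and Relb. A kB match was found in 5 of these 8 (Nfkb2, Rel, Nfkbia, Tnfaip3 and Bcl3), against 4.51% of all 32851 windows. Where a gene had several windows, the one nearest the GENCODE start was used. Nfkb2 had 3, with the start used 417 bases from the GENCODE start, and Tnfaip3 and Birc2 had 2 each. CANNTG was found in 3 of the 8 (Tnfaip3, Birc2 and Birc3) against 72.3% of all windows, CAGGTG (which is among the CANNTG) in 1 of 8 against 20.2%, and CAGCTG in 0 of 8 against 16.3%. These are matches of letters and do not show binding.

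Of the subunits, Rel had the largest difference at 16 h with all 8 libraries and without the shifted one, but not with length offsets. Rel (ENSMUSG00000020275; chromosome 11, 23736847 to 23770970) encodes c-Rel, an activating subunit made mainly in lymphoid and myeloid cells. It stood at 33.95 and 32.1 CPM in GFP cells and 34.2 and 33.2 CPM in E47-ER cells at 4 h. By 16 h the GFP libraries had 27.1 and 28.0 CPM and the E47-ER libraries 31.9 and 37.1 CPM, so that the 2 GFP libraries were the lowest of the 8. The log2 fold change was 0.032 (95% interval -0.27 to 0.34) at 4 h and 0.33 (0.016 to 0.64, SE 0.135, adjusted p = 0.194) at 16 h. Without the shifted library it was 0.34 (0.065 to 0.62, adjusted p = 0.126), not past the threshold in either fit. With length offsets it was 0.080 (adjusted p = 0.769), the smallest of the 5 subunits, and Rel has the longest transcript of the 10 genes. Without replicate 1 of GFP at 16 h Rel was at 0.33, under Nfkb1 at 0.48.

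The other activating subunits had smaller differences. Rela (ENSMUSG00000024927; chromosome 19, 5637483 to 5648130), the gene of p65, the main partner of p50, ranged from 99.2 to 114.8 CPM over all 8 libraries, and its range of 1.10-fold over the 7 libraries other than the shifted one was the narrowest of the 10 genes. Its log2 fold change was 0.053 (95% interval -0.23 to 0.33) at 4 h and 0.12 (-0.16 to 0.40, adjusted p = 0.544) at 16 h, or 0.046 (adjusted p = 0.849) without the shifted library. Relb (ENSMUSG00000002983; chromosome 7, 19606217 to 19629438), the gene of the noncanonical partner of p52, ranged from 64.7 to 80.6 CPM. At 4 h it gave -0.060 (-0.37 to 0.25) and at 16 h 0.20 (-0.12 to 0.51, adjusted p = 0.381), or 0.086 (adjusted p = 0.720) without the shifted library. It shares a stretch of chromosome 7 with Bcl3, with 179023 bases and 13 annotated genes between them.

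Nfkb1 and Nfkb2 encode the precursors p105 and p100, which act as inhibitors until they are cut to the DNA-binding subunits p50 and p52. Nfkb1 (ENSMUSG00000028163; chromosome 3, 135584655 to 135691547) stood at 389.9 and 339.1 CPM in GFP cells and 409.6 and 372.2 CPM in E47-ER cells at 4 h, and the groups overlapped. The levels at 16 h were 362.7 and 273.8 CPM in GFP cells and 368.7 and 384.5 CPM in E47-ER cells, the lowest value again being the shifted library. Its log2 fold change was 0.10 (95% interval -0.28 to 0.48) at 4 h and 0.24 (-0.14 to 0.62, adjusted p = 0.371) at 16 h, and 0.047 (-0.16 to 0.26, adjusted p = 0.846) at 16 h without that library. With length offsets its 16 h value was 0.14 (adjusted p = 0.50). Nfkb2 (ENSMUSG00000025225; chromosome 19, 46304320 to 46312385) ranged from 148.1 to 186.5 CPM, with its highest 2 values in E47-ER cells at 16 h. It gave -0.049 (-0.35 to 0.25) at 4 h and 0.17 (-0.13 to 0.47, adjusted p = 0.416) at 16 h. The 16 h value was 0.092 (adjusted p = 0.657) without the shifted library and 0.088 (adjusted p = 0.651) with length offsets. Psd overlaps Nfkb2 on the other strand at 9.58 to 12.1 CPM, and Gm43430 overlaps Nfkb1 on the same strand at 1.26 to 4.03 CPM, and reads shared with them could not be separated.

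The genes were also compared between 4 and 16 h of the drug within each vector. In GFP cells edgeR called none of them and no other gene (0%). At an unadjusted p under 0.05 there were 0 members and 1238 of all genes, and DESeq2 called 0. The smallest p of the 10 was that of Rel, with a log2 fold change of -0.26 at 16 h against 4 h (95% interval -0.57 to 0.048, adjusted p = 0.50). In E47-ER cells no member was called, where 0.0147% of all genes were (2 of 13644). DESeq2 called 0 members and 20 of all genes. At an unadjusted p under 0.05 there were 1 member and 695 of all genes (5.09%). That member was Birc2, with a log2 fold change of 0.40 (0.083 to 0.71, adjusted p = 0.981). Without the shifted library, which is not in this contrast but enters the estimate of spread, Birc2 was called at 0.39 (0.20 to 0.57, adjusted p = 0.0213), where 3.08% of all genes were. For the difference between the E47-ER effects at 16 h and 4 h, edgeR called 0 members and 0% of all genes, with 1 member and 671 of all genes at an unadjusted p under 0.05, and DESeq2 called 0. The time contrasts use the same libraries as the E47-ER contrasts, so the values for Birc2 are not independent of each other.

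The rest of the pathway was followed in 6 lists chosen by function. Among 12 genes of the IKK complex and its kinases, 1 was called at 16 h and 0 at 4 h. Map3k8, which encodes the kinase TPL2 that p105 holds inactive, stood at 49.6 and 43.3 CPM in GFP and 84.1 and 81.3 CPM in E47-ER cells after 16 h (a difference of 0.83 on the log2 scale, SE 0.130, adjusted p = 0.0238). The list's median at 16 h was 0.36, and 0.11 without the shifted library. Among 19 adaptors and ubiquitin ligases 0 were called at either time, with the smallest p at 16 h for Irak2 (0.60, adjusted p = 0.0846) and Traf3ip2 (0.69, adjusted p = 0.121), adaptors of IL-1-family and IL-17-family receptors. At 4 h these were Irak3 (-0.28) and Traf5 (0.27), both with an adjusted p of 1.0. Among 17 further inhibitors and deubiquitinases 0 were called at either time. Nfkbie, the gene of IkBe, gave 0.58 (adjusted p = 0.0705) and Commd1 -0.73 (adjusted p = 0.153) at 16 h. The value for Commd1 rested on the shifted library and was -0.27 (adjusted p = 0.232) without it. At 4 h N4bp1 gave 0.43 (adjusted p = 0.691) and Tax1bp1 -0.30 (adjusted p = 0.863). Both were called at 4 h without the shifted library, N4bp1 higher (adjusted p = 0.0143) and Tax1bp1 lower (adjusted p = 0.0300), as was Map3k8, higher (adjusted p = 0.00337).

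With all 8 libraries, the listed genes called at 4 h were 1 receptor and 2 targets. Of 21 receptors 19 were tested, and Cd27, a costimulatory TNF receptor of lymphocytes, was higher with E47-ER at both times. It stood at 2.02 and 1.85 CPM in GFP cells and 8.83 and 11.8 CPM in E47-ER cells at 4 h (2.41, SE 0.328, adjusted p = 0.033). At 16 h it stood at 2.55 and 0.932 against 20.9 and 21.8 CPM (3.47, SE 0.344, adjusted p = 0.00414), and reads shared with Vamp1, which overlaps it, could not be separated. Of 34 known target genes 27 were tested: at 4 h 1 rose and 1 fell, and at 16 h 2 rose and 0 fell. Ltb, the gene of lymphotoxin beta, rose from 24.6 and 17.8 to 46.1 and 47.6 CPM at 4 h (1.15, SE 0.165, adjusted p = 0.0429) and from 30.3 and 31.6 to 108.8 and 110.6 CPM at 16 h (1.83, SE 0.167, adjusted p = 0.00286). Tnf, the gene of the cytokine TNF, rose at 16 h from 9.74 and 11.98 to 25.9 and 28.3 CPM (1.33, SE 0.188, adjusted p = 0.0171). Nlrp3, the inflammasome sensor gene, was lower with E47-ER at 4 h, at 13.0 CPM in both libraries against 29.1 and 26.6 CPM (-1.10, SE 0.147, adjusted p = 0.033).

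Each of these calls was lost in at least 1 of the 8 fits that left out a library. When any library other than the GFP pair of 16 h was left out, 1 at a time (6 of 8), Map3k8 at 16 h and Cd27, Ltb and Nlrp3 at 4 h were no longer called, with adjusted p up to 0.257, 0.605, 0.497 and 0.472. Tnf at 16 h was lost without either E47-ER library of either time (4 of 8, up to 0.215). Cd27 and Ltb at 16 h were lost without replicate 2 of E47-ER at 16 h alone, with adjusted p of 0.0535 and 0.0502. All kept their direction, with log2 fold changes of 0.73 to 0.96 for Map3k8 and -1.17 to -1.03 for Nlrp3, for example.

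Targets were called in both directions. Their median log2 fold change at 16 h was -0.31, with 9 of 27 above 0, and -0.022 without the shifted library. In that fit 28 targets were tested, and a larger share of all genes was called than with all 8 libraries, as given above. At 16 h it called Ltb, Tnf and Irf1 higher and Il6, Il2ra, Myc, Stat5a, Nlrp3, Irf4 and Ier3 lower. These names were given after their values were seen. At 4 h that fit called Ltb, Tnf, Csf2 and the receptors Cd27, Il1r2 and Il18r1 higher, and Nlrp3, Myc, Ier3, Il6, Junb and Il2ra lower. It also called Map3k8, Tab2, Irak2, Traf3ip2, Nfkbie, Cd27, Tnfrsf9, Il17rb, Il18r1 and Il18rap higher and Tax1bp1 lower at 16 h. Among 9 tested of 12 further genes of inhibitors of apoptosis and their antagonists, relatives of Birc2 and Birc3 or regulators of them, 0 were called in either fit. At 16 h Naip5 gave 0.72 (adjusted p = 0.132) and Naip2 0.74 (adjusted p = 0.14), members of 1 gene family whose reads may be shared. Without the shifted library they were at 0.64 (adjusted p = 0.0802) and 0.43 (adjusted p = 0.0672). At 4 h Xaf1 gave -0.50 (adjusted p = 0.933) and Diablo -0.22 (adjusted p = 1.0).

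**Figure D4:**
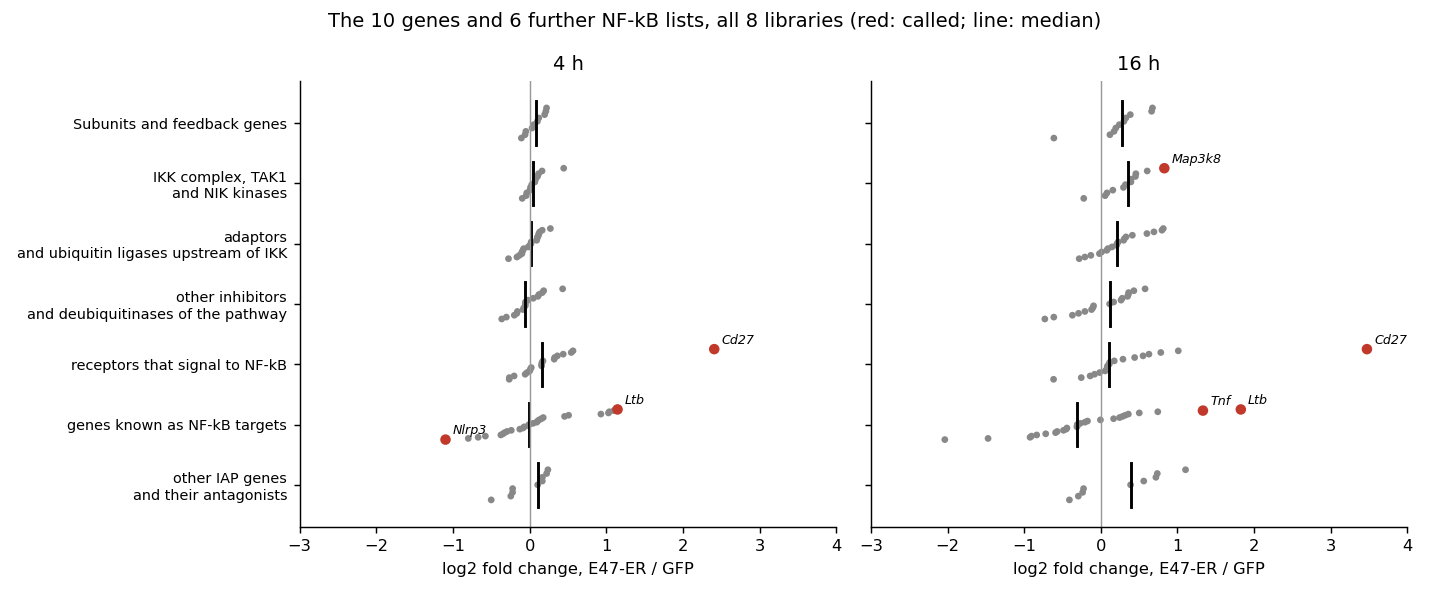
Log2 fold change of E47-ER over GFP cells (horizontal) at 4 h (left) and 16 h (right) for the tested genes of the 10 and of the 6 further lists (vertical), all 8 libraries; red points are called at an adjusted p under 0.05 and black lines are list medians. At 16 h the 10 genes have a median of 0.27 and the targets -0.31, with Ltb and Tnf called higher.

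The genes most like the 10 in pattern were Rab1b, Rassf2, Gimap8, Tmc8 and Prr14, by Pearson's r with the members' mean centred log2 CPM over the 7 libraries other than the shifted one. Their r was 0.996, 0.985, 0.983, 0.981 and 0.981 among 8986 candidates, and between 0.882 and 0.990 over all 8 libraries. These are descriptions over libraries that share groups, and the highest of 8986 values are high by selection.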

How the data were processed

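Each value in the table the authors deposited is a raw count, a whole number for 1 Ensembl gene in 1 library, with no normalization. Per the submitters' processing notes, the build was mm10 and DESeq2 was among the tools, without version or role. The aligner, counter, strand setting and annotation were not given in the sources used here. GENCODE M21 (GRCm38) matched 50462 of 50686 gene IDs and gave symbols, coordinates and lengths. Totals of 8813782 to 18677675 counts, with 2 libraries in each group, set the precision.

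edgeR 4.0.16 (R 4.3.3) was run on the deposited counts. The filterByExpr minimum count was 10, scaling was by TMM, and all 8 libraries entered a robust quasi-likelihood fit with a mean for each group. In each of 5 comparisons the two-sided p-values were corrected over all tested genes (Benjamini-Hochberg), and a gene was called under 0.05. The SE is the absolute log2 fold change over the square root of F. CPM used the TMM-scaled library sizes. The scripts were tested on simulated data. Alternatives included DESeq2 1.42.0 and limma 3.58.1 (voom). Plots used matplotlib 3.10.9 and Python 3.11.15.

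The members and the lists were chosen with earlier results of these data known. The 10 members are always named in the E47-ER comparisons, and elsewhere where called or of smallest p. Of each list, up to 4 called genes, or the 2 of smallest p where none was called, are named in each E47-ER comparison, and up to 2 called genes in the others. Likeness was computed for genes with a mean log2 CPM of 3 or more.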

Additional observations from a re-analysis of the deposited data

How the results depend on the processing

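Of the members at 16 h, 0 were called with all 8 libraries, 1 at an adjusted p under 0.1 (Birc2), 2 by DESeq2 (Tnfaip3, Birc2), 1 with scaling by library totals only (Birc2), 3 with no filter on low counts (Tnfaip3, Birc2, Nfkbia), and 0 to 8 when 1 library was left out. The members' counts for the difference between times and for time in either vector also moved with some left-out libraries, as did those of all genes. For time in E47-ER cells voom with quality weights called 1 member and 406 of all genes. Of all genes 39 were called at 4 h, and 5 at 0.01, 68 at 0.1, 109 by DESeq2, 70 with length offsets, 19 by library totals, 405 by voom, 165 unfiltered, 442 with only the libraries of that time, 11 with a replicate block within each time, and 1 to 619 without 1 library. At 16 h 217 were called, and 47 at 0.01, 500 at 0.1, 943 by DESeq2, 368 with length offsets, 55 by voom, 1816 unfiltered, 6 with only the libraries of that time, 54 with the replicate block, and 15 to 7022 without 1 library. With scaling by library totals only, 188 of all genes were called at 16 h. The cause of these shifts was not tested. Replicate numbers were not taken to pair the samples: deviations of same-numbered libraries correlated at 0.024 (4 h) and -0.090 (16 h) within a time and at up to 0.202 (E47-ER at 4 h with GFP at 16 h) over all pairs of groups, and with a replicate block 0 members were called in any comparison. When 1 library was left out, 4 fold changes at 4 h crossed 0: Nfkb2 ran from -0.15 to 0.055, Rel from -0.011 to 0.072, Rela from -0.010 to 0.11 and Relb from -0.16 to 0.027. Of 902 recomputed fold changes, 792 kept their direction and their side of the threshold; of 214 recomputed counts of calls, 147 stayed within 1.5 times. With 2 libraries a group the 95% intervals at 4 h reached up to 0.66 (Tnfaip3), and differences of that size could have been missed.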
